A study of Mus musculus with 10 samples.

Results

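The collagen genes of mouse skin are described here, the 44 of 46078 gene rows whose symbol in the authors' deposited table is Col, a number, the letter a and a number. By structure they fall into 11 fibrillar genes, 9 basement membrane genes, 9 FACIT genes (fibril-associated collagens with interrupted triple helices), 9 network genes, 4 transmembrane genes and 2 genes outside these classes, Col26a1 and Col28a1. RNA was sequenced from whole back skin of C57BL/6 mice kept free of specific pathogens. Newborn mice had received 100 µl of Staphylococcus aureus SF8300 (the SA group, 5 libraries) or Staphylococcus epidermidis Tü3298 (the SE group, 5 libraries) on alternate days between day 3 and day 19 of age, and an 8 mm skin punch was taken on day 21 after light removal of fat. The comparison addresses how collagen gene expression differs between young skin given the pathogen and young skin given the commensal. All mice had bacteria applied and no group without them was analysed here, so a difference is relative between SA and SE. Carriage of the bacteria on day 21 is not in the values used here. Sex, litter and batch are not in the labels, nor is it said whether the 5 libraries of a group are 5 animals, so a p-value here measures spread among libraries that may be partly technical.

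Collagens are secreted or membrane-anchored proteins in which 3 chains wind into a triple helix, and the regular glycines along the chain are what let the helix close. Fibrillar collagens, types I, III and V above all in skin, form the banded fibers that give the dermis its strength and are made mainly by fibroblasts. FACITs sit on the surface of those fibers, type IV forms the sheet of basement membranes, type VII anchors the epidermal basement membrane to the dermis, type VI forms fine beaded filaments, and type XVII is a transmembrane protein that holds basal keratinocytes to the membrane beneath them.

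The exons show this repeat directly. Many fibrillar collagen genes are built of exons of 54 bases, each coding for 6 repeats of glycine and 2 further residues. In the GENCODE models of GRCm38, 305 of 627 inner coding exons of the 11 fibrillar genes had that length, 48.6%, against 0.433% of the inner coding exons of other protein-coding genes. The share was 26.4% for FACIT genes, 9.40% for transmembrane genes, 8.37% for network genes and 4.61% for basement membrane genes. The following exons of exactly 54 bases come from the 3 most abundant fibrillar transcripts of this skin and from Col12a1, the FACIT gene that differed most firmly between the groups. They are written in the coding direction with the glycine codon (GGN) that opens each 3-codon unit in capitals, so that the shared spacing can be read across genes. Each is the first inner exon of this length in its gene with a glycine codon opening every unit, so that spacing was a condition of the choice. In Col12a1 only 4 of 63 inner coding exons had this length.
Col1a1, chr11:94939904-94939957, plus strand, coding exon 8: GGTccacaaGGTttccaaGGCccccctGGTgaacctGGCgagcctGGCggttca
Col1a2, chr6:4515481-4515534, plus strand, coding exon 8: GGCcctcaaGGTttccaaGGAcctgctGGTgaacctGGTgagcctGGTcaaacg
Col3a1, chr1:45325360-45325413, plus strand, coding exon 6: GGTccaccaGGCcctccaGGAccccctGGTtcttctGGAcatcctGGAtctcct
Col12a1, chr9:79614349-79614402, minus strand, coding exon 54: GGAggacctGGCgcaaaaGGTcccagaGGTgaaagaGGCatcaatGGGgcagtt
Of the 469 inner exons of this length in all collagen genes, 452 carried a glycine codon at the start of each 3-codon unit from end to end.

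The classes also differed in how long the repeat ran without a break. In the 11 fibrillar genes the longest unbroken run held 216 to 344 units of 3 codons, with a median of 338, and the 2 shortest were those of Col24a1 and Col27a1. The longest runs held 30 to 75 units in basement membrane genes, 32 to 113 in FACIT genes, 37 to 87 in network genes and 40 to 55 in transmembrane genes. Col12a1, the longest collagen coding sequence of the FACIT class at 3065 codons, had only 8.12% of its codons inside such runs, against 73.3% in Col1a1.

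**Figure D1:**
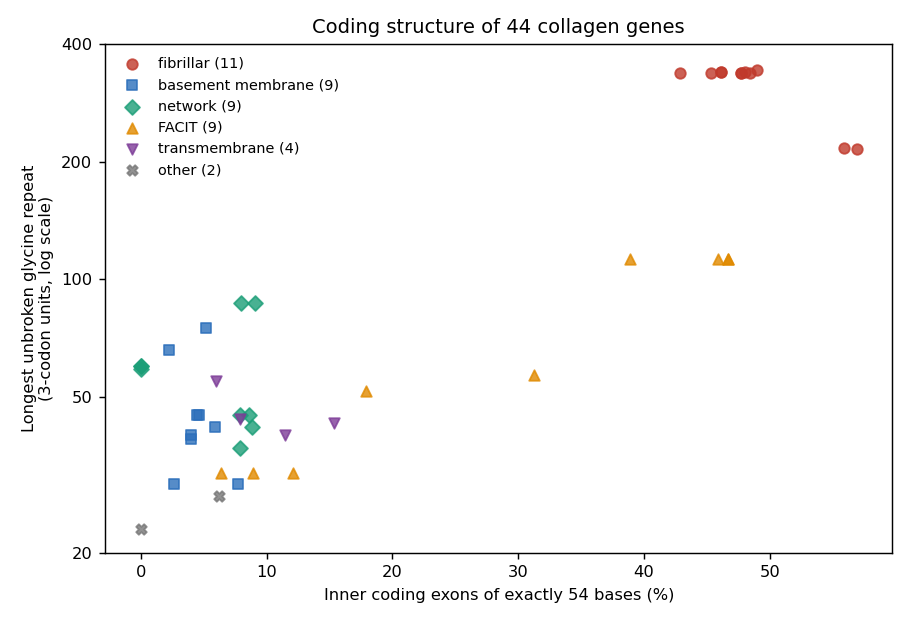
Share of inner coding exons of exactly 54 bases (x axis, percent) and longest unbroken glycine repeat in the coding sequence (y axis, units of 3 codons, log scale), 1 point for each of 44 collagen genes, coloured by class. The 11 fibrillar genes stand apart at 216 units or more, and 4 FACIT genes follow at 113 units.

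Between 21140654 and 25417851 reads per library fell on genes, so 1 CPM, a read count scaled to library size, stood for at least 21.1 reads. Over all tested genes, SE libraries 3, 4 and 5 lay apart, at 37.9 to 54.3 on a leading principal component (45.2% of variance) where the remaining 7 libraries lay between -32.5 and -9.34. They also held 388 to 2726 summed CPM of 8 tested hair shaft and inner root sheath genes, against 15.9 to 76.3 in the other 7 libraries. SA library 1 stood apart by low fibrillar collagen. Ddx3y, a Y-linked gene, exceeded Xist in SA libraries 1 and 3 and in SE library 3, so both groups mixed sexes by this measure. Counts, and values that moved with these libraries, are therefore also given without SE libraries 3 to 5, and in places without SA library 1 as well. The SE group is then SE libraries 1 and 2 alone, neither with Ddx3y above Xist, against 2 of 5 SA libraries (1 of 4 without SA library 1), so sex by this measure is not balanced between the groups there.

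Of the 44 genes, 41 passed the filter on low counts. Col6a4 held 73 reads over all 10 libraries (31 in SA and 42 in SE), Col9a1 held 52 (24 and 28) and Col10a1, a collagen of growth plate cartilage, held 27 (11 and 16). These 3 were not tested in the comparison of all 10 libraries with this filter. Without SE libraries 3 to 5 Col6a4 passed it, at a log2 fold change of -0.38 ± 0.644 (standard error, edgeR adjusted p = 0.901). Of the tested genes 18 averaged at least 100 CPM and 11 averaged under 10 CPM.

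Levels spanned more than 4 orders of magnitude. On the scale of CPM per kb of transcript, the only scale on which genes are compared here, Col3a1 led with 3497 ± 758 in SA libraries and 3234 ± 877 in SE libraries (SD, n = 5 each). Col1a2 followed with 3330 ± 665 and 3069 ± 602, and Col1a1 with 2658 ± 458 and 2293 ± 438. The means of these 3 lay within the spread over libraries, although Col1a1 was below Col1a2 in all 10. A wide gap lay below them, since the next gene, Col17a1, reached 240 ± 29.4 CPM per kb in SA and 254 ± 49.6 in SE. Col6a2, Col6a1, Col5a2, Col5a1, Col4a1 and Col6a3 came next, from 212 down to 98.3 CPM per kb over all 10 libraries, and neighbours in this run overlapped in their library values. Col16a1, Col15a1, Col4a2, Col14a1 and Col18a1 lay between 82.2 and 45.4, and Col7a1, the anchoring fibril gene, at 24.6. At the bottom were the cartilage collagen Col2a1 at 0.109 and Col19a1 at 0.106 CPM per kb.

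**Figure D2:**
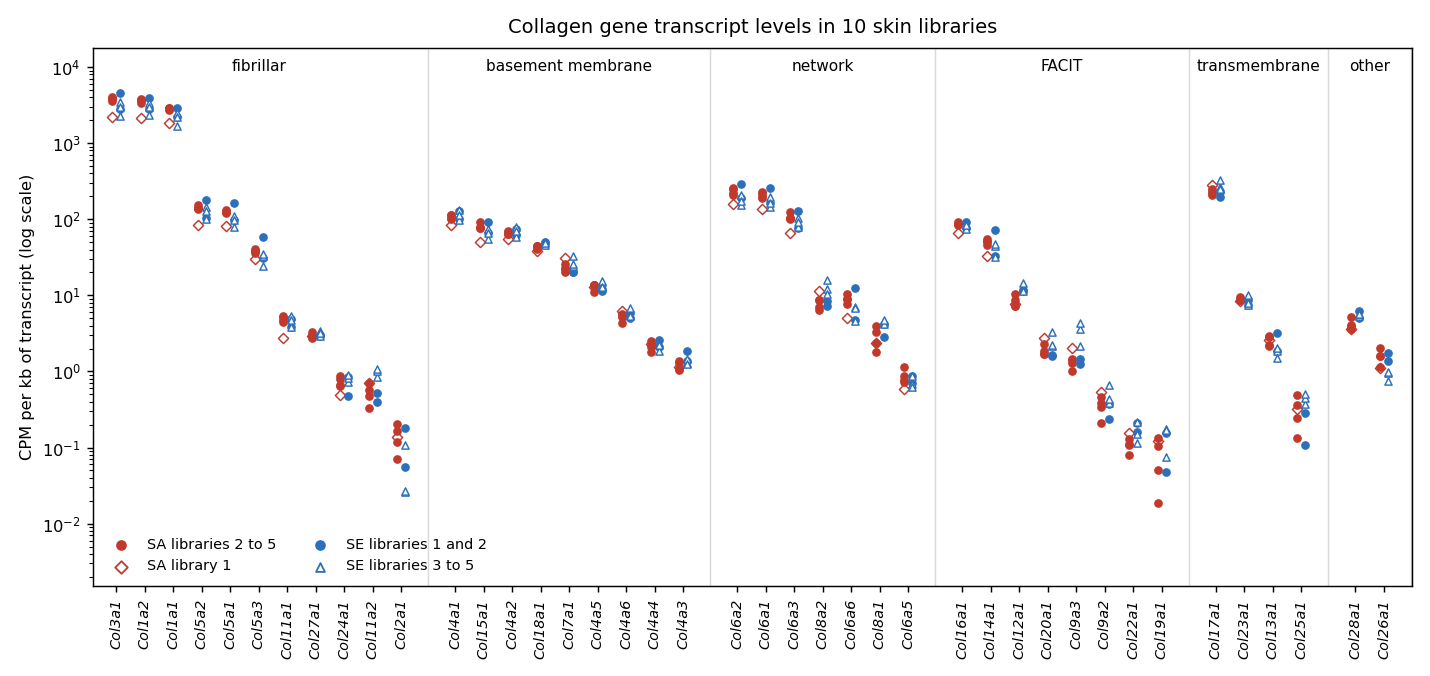
Transcript levels of the 41 tested collagen genes in CPM per kb of transcript (log scale), grouped by class and ordered by level, 1 point per library, SA in red and SE in blue with SA library 1 and SE libraries 3 to 5 as open symbols. Col3a1, Col1a2 and Col1a1 lie above all other collagen genes in every library.

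Collagen transcripts took 4.25% of gene reads in SA library 1 and 6.43% to 6.94% in the other 4 SA libraries, and 7.29%, 5.11%, 6.11%, 4.38% and 5.47% in SE libraries 1 to 5. The group means were 6.22% ± 1.12 for SA and 5.67% ± 1.10 for SE (SD over 5 libraries), a difference smaller than either SD. Col1a1, Col1a2 and Col3a1 together made up 81.0% to 86.1% of the collagen reads in every library. The collagen content of the RNA is therefore largely a statement about these 3 genes.

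No collagen gene passed the threshold between SA and SE. With edgeR's quasi-likelihood test, 0 of 41 had a Benjamini-Hochberg adjusted p under 0.05, where 0.0769% of all tested genes did. At an unadjusted p under 0.05 there were 7 of 41, or 17.1%, against 11.1% of all genes. All 7 were lower in SA, a direction that 6.53% of all genes took at that p: Col12a1, Col28a1, Col8a1, Col18a1, Col9a3, Col22a1 and Col4a3. The count at that p moved with single libraries, and so did the share of all genes. It was 4 of 41, 9.76%, without SA library 2, 3 or 5, where 9.34%, 8.08% and 9.26% of all genes were at that p. Without SE library 1 it was 9, against 18.8% of all genes, and Col26a1 and Col6a6 among them were higher in SA. It was 8 without SE library 2 (19.9% of all genes), with Col2a1 and Col13a1 higher in SA, and 8 without SE library 3 (7.30% of all genes), with Col23a1 higher in SA. DESeq2 gave no adjusted p to Col2a1 and Col19a1. Of the other tested collagen genes it placed 2 past an adjusted p of 0.05, Col12a1 and Col28a1, both lower in SA. It placed 1.83% of the 16253 genes with an adjusted p there, and 0.972% in that direction. In the authors' deposited table the same 2 of 43 collagen genes with an adjusted p were under 0.05, both lower in SA, against 1.15% of its genes and 0.515% in that direction. The median log2 fold change, SA minus SE, was -0.02 over the 41 collagen genes and -0.01 over all 16909 tested genes.

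Without SE libraries 3 to 5, edgeR again placed 0 collagen genes past the threshold (0.233% of all genes), and 4 of 42 had an unadjusted p under 0.05, namely Col4a3, Col28a1, Col12a1 and Col18a1, where 9.42% of all genes did and 4.23% did with SA lower. Without SA library 1 as well, 0 passed (0.206% of all genes), and Col22a1 joined these 4 at an unadjusted p under 0.05, beside 10.2% of all genes and 5.22% with SA lower. In all 3 comparisons every collagen gene at that p was lower in SA.

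**Figure D3:**
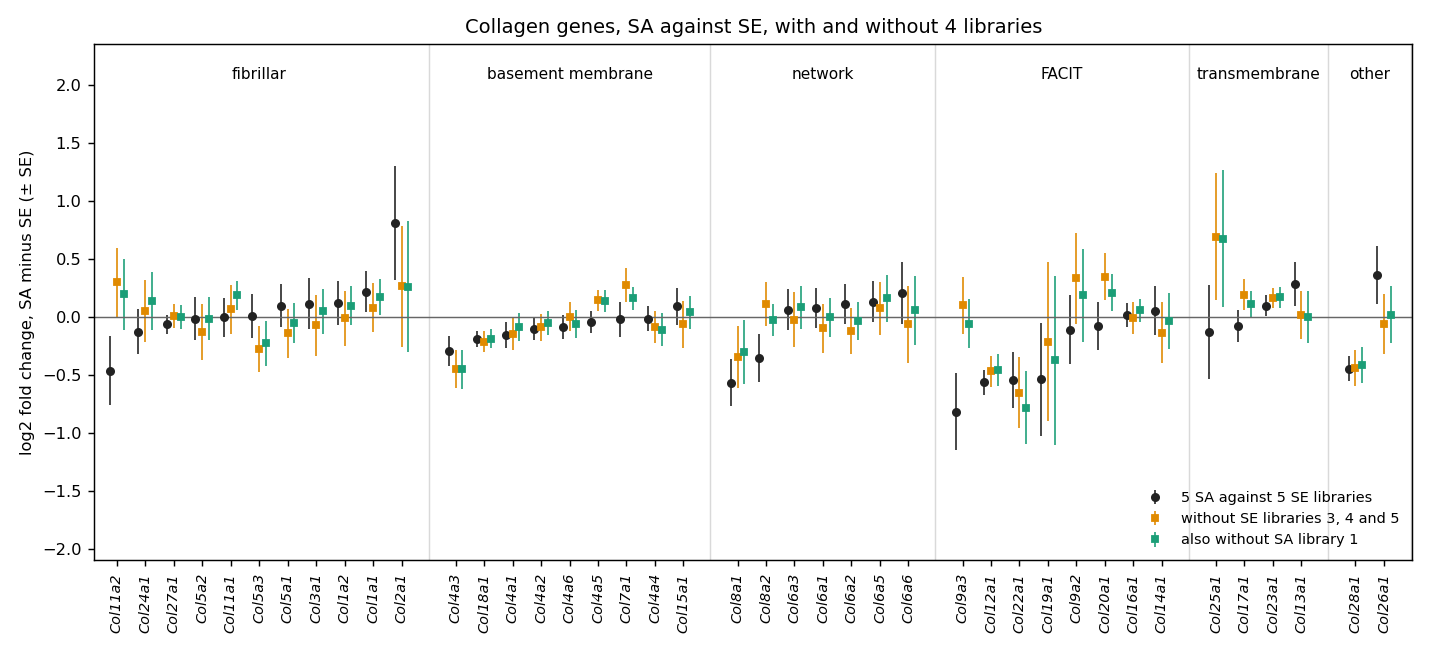
Log2 fold change, SA minus SE, with its standard error, for the tested collagen genes by class, from all 10 libraries (black), without SE libraries 3 to 5 (orange) and also without SA library 1 (green). Col12a1, Col28a1, Col18a1 and Col4a3 stay below 0 in all 3, while Col9a3 moves from -0.82 to near 0.

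The fibrillar collagens of the dermis varied from library to library more than between groups. Col3a1, which encodes the type III chain abundant in young skin, measured 12095, 21571, 21107, 22519 and 19990 CPM in SA libraries 1 to 5 and 25474, 15609, 19547, 12532 and 16807 CPM in SE libraries 1 to 5. Col1a1, the alpha-1 chain of type I, measured 10956, 16782, 17425, 17269 and 16370 CPM in SA and 17067, 12900, 14942, 10090 and 12980 CPM in SE. Col1a2, the alpha-2 chain of type I, measured 11585, 19450, 19475, 20286 and 18259 CPM in SA and 21049, 15072, 17782, 12433 and 15721 CPM in SE. For all 3 genes SA library 1 was far below the other SA libraries, SE library 1 was the highest and SE library 4 the lowest of its group, and the groups overlapped. The log2 fold changes were 0.11 ± 0.219 for Col3a1 (adjusted p = 0.861), 0.21 ± 0.177 for Col1a1 (adjusted p = 0.658) and 0.12 ± 0.189 for Col1a2 (adjusted p = 0.825; standard errors, edgeR). Without SE libraries 3 to 5 Col3a1 and Col1a2 stood at -0.07 and -0.02 and Col1a1 at 0.08. In bulk skin fewer cells of a type and less RNA per cell cannot be told apart.

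Type V collagen, which starts type I fibrils and sets their width, followed the same library pattern. Col5a1 measured 692, 1048, 1041, 1117 and 1019 CPM in SA libraries 1 to 5 and 1356, 823, 935, 657 and 834 CPM in SE libraries 1 to 5. Col5a2 measured 548, 929, 921, 1016 and 899 CPM in SA and 1200, 694, 951, 673 and 846 CPM in SE. SA library 1 and SE library 4 were again the lowest of their groups and SE library 1 the highest. The log2 fold changes were 0.09 ± 0.185 for Col5a1 and -0.02 ± 0.188 for Col5a2 (standard errors), with edgeR adjusted p of 0.862 and 0.977. Col5a3 ranged from 183 to 249 CPM in SA and from 150 to 354 CPM in SE.

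The fibrillar genes better known from cartilage were scarce. Col2a1, the main cartilage collagen, measured 0.703, 0.836, 1.05, 0.361 and 0.606 CPM in SA libraries 1 to 5 and 0.282, 0.923, 0.134, 0.549 and 0.137 CPM in SE libraries 1 to 5. Col11a2 measured 3.75, 3.83, 3.07, 1.76 and 2.59 CPM in SA and 2.13, 2.77, 4.54, 5.49 and 5.80 CPM in SE. The groups overlapped for both genes, and the 3 highest Col11a2 values were those of SE libraries 3, 4 and 5. Their log2 fold changes of 0.81 ± 0.489 and -0.47 ± 0.297 had edgeR adjusted p of 0.555 and 0.574, and Col11a2 stood at 0.30 without SE libraries 3 to 5. Col11a1 was more abundant, at 21.3 to 40.4 CPM in SA and 29.1 to 41.4 CPM in SE. Col27a1 was the steadiest collagen gene, with a highest library only 1.25 times the lowest of 10 (20.9 to 26.0 CPM), and Col24a1 lay between 3.43 and 6.35 CPM.

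**Figure D4:**
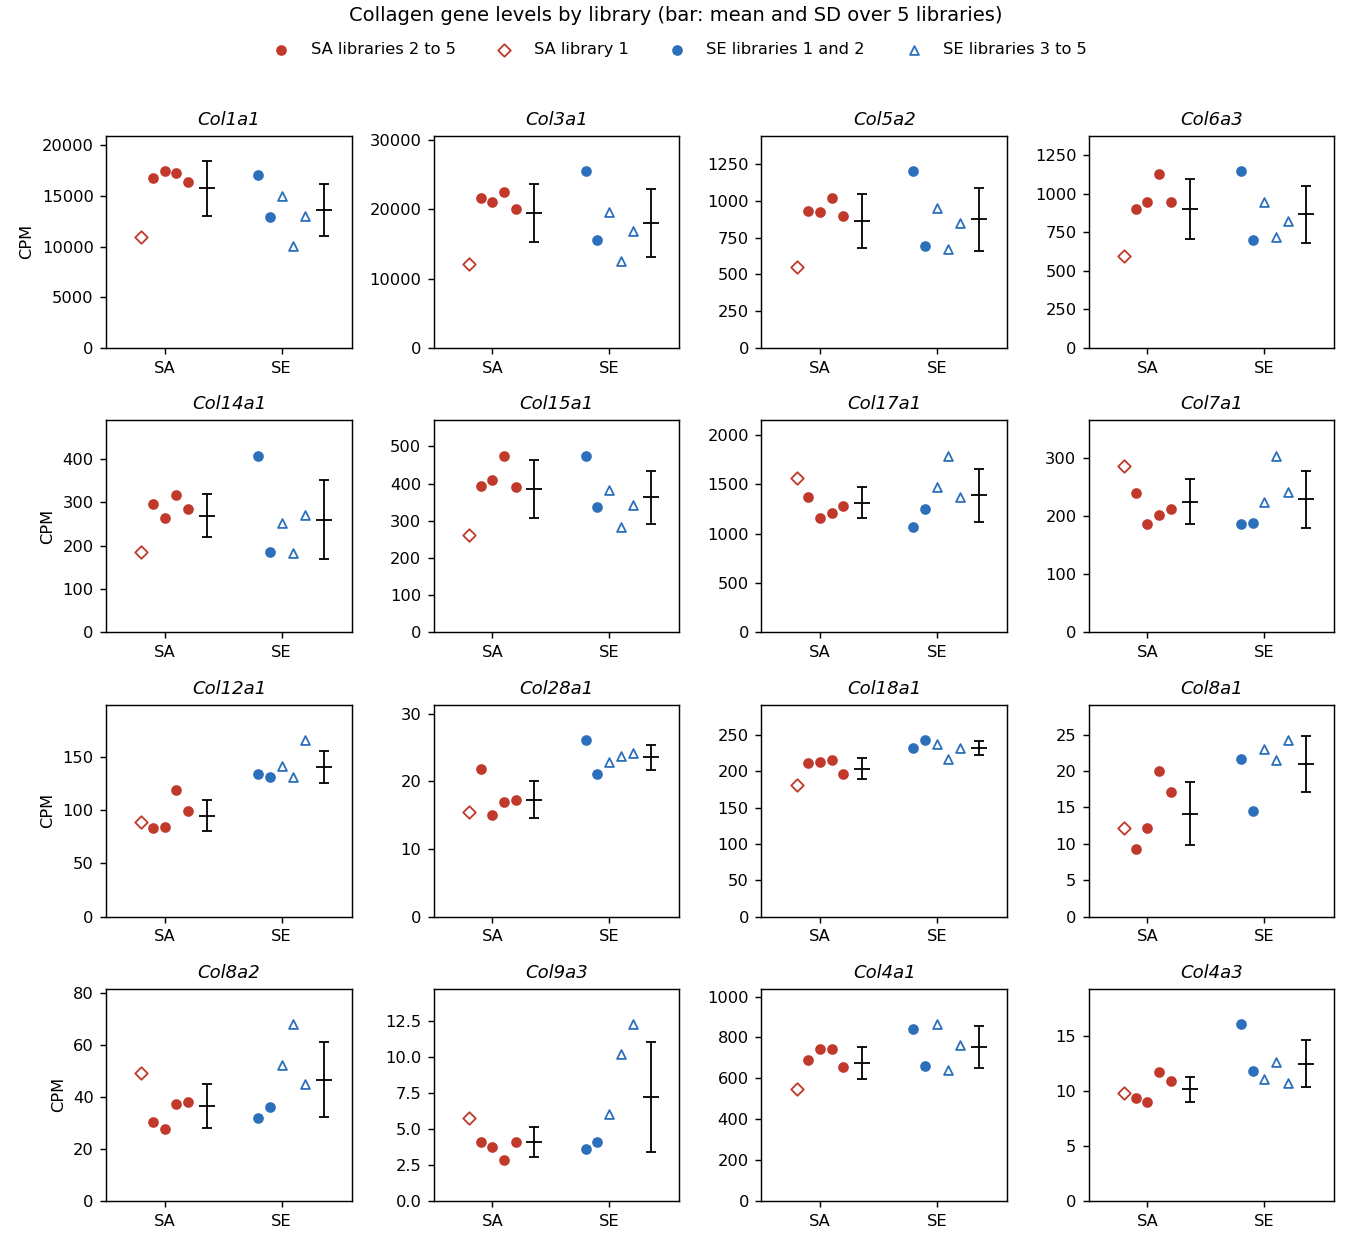
CPM of 16 collagen genes in each library (linear axes from 0), SA in red and SE in blue, open symbols for SA library 1 and SE libraries 3 to 5, with the mean and SD over 5 libraries beside each group. Col1a1, Col3a1 and Col5a2 are low in SA library 1 and high in SE library 1, Col17a1 and Col7a1 the other way round, and the SA and SE points of Col12a1 and Col18a1 do not overlap.

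The library pattern ran through most of the abundant collagens. SA library 1 was the lowest SA library for 21 of 41 collagen genes, among them 8 of 11 fibrillar and 5 of 7 network genes, where it was lowest for 27.1% of all tested genes. SE library 4 was the lowest SE library for 17 collagen genes, against 20.4% of all genes, and SE library 1 the highest SE library for 17, against 23.8%. Summed fibrillar CPM ran from 36110 in SA library 1 and 36603 in SE library 4 to 66569 in SE library 1, a 1.84-fold range.

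Fibroblast markers moved with the fibrillar sum. The 10 fibroblast marker genes, none at 0, summed to 2650, 4283, 3916, 4734 and 4083 CPM in SA libraries 1 to 5 and to 5848, 3463, 3922, 2654 and 3497 CPM in SE libraries 1 to 5, so the same libraries were lowest and highest. The quotient of the fibrillar sum over the fibroblast sum ranged from 11.4 in SE library 1 to 15.4 in SA library 3, a 1.35-fold range. The 8 basal keratinocyte markers ran the other way, with the highest sums in SE library 4 (11525 CPM) and SA library 1 (10219 CPM) and the lowest in SE library 1 (6652 CPM). Other cell types showed ranges that overlapped between SA and SE: summed CPM were 1160.0 to 1429 and 1155 to 1733 for 8 pericyte and smooth muscle markers, 1250.0 to 1661 and 746 to 1696 for 8 adipocyte markers, 12306 to 22339 and 12079 to 23763 for 9 skeletal muscle markers, and 377 to 585 and 212 to 553 for 8 proliferation genes. For the proliferation genes the overlap came from SE libraries 1 and 2, since SE libraries 3, 4 and 5 summed to 212, 251 and 220 CPM, below all other 7 libraries. All 8 of these genes had higher means in SA (median log2 fold change 0.43) and 0 of 8 had an unadjusted p under 0.05 by edgeR. The part of these cell types in the collagen values was not tested.

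**Figure D5:**
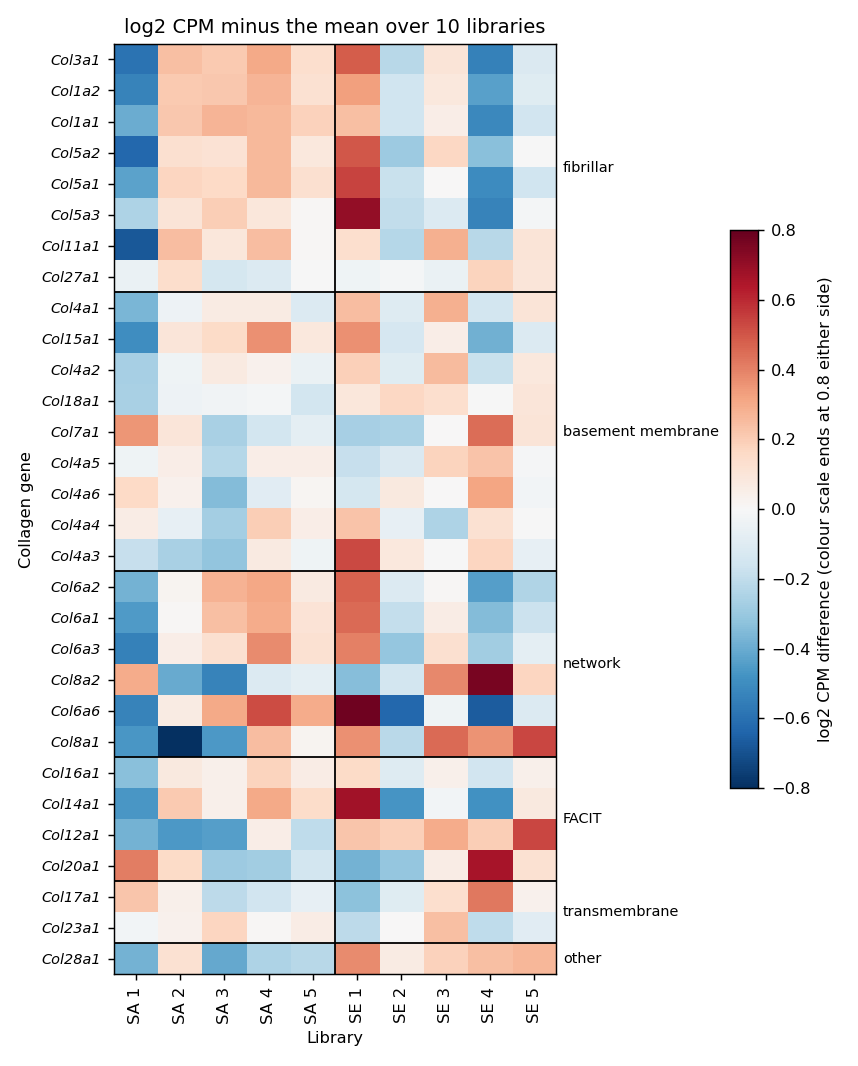
Log2 CPM minus the gene's mean over 10 libraries (colour, -0.8 to 0.8) for the collagen genes averaging at least 10 CPM, rows by class, columns by library. The columns of SA library 1 and SE library 4 are blue and that of SE library 1 red for most fibrillar and type VI genes, while Col7a1, Col8a2, Col20a1 and Col17a1 show the opposite colours there.

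FACIT collagens held the firmest difference of the family. Col12a1, which encodes type XII collagen, a fiber-surface protein of dermis, tendon and fascia that links neighbouring fibrils, measured 88.3, 83.3, 84.4, 119 and 99.5 CPM in SA libraries 1 to 5. In SE libraries 1 to 5 it measured 134, 131, 141, 131 and 166 CPM. Every SA library lay below every SE library, which 0.917% of all tested genes showed in that direction, and SE library 5 was the highest. The SE mean was 1.48 times the SA mean, with a log2 fold change of -0.57 ± 0.109 (standard error), an unadjusted p of 0.000222 and an adjusted p of 0.0874 by edgeR, outside the threshold.

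The Col12a1 call depended on the test and on single libraries. DESeq2 gave an adjusted p of 0.000717, and the authors' deposited table gives 0.00107. By edgeR it was the 1 collagen gene that passed without SA library 4 (adjusted p = 0.0426, with 0.0583% of all genes past the threshold), without SE library 1 (0.0408, with 1.32% of all genes) or without SE library 2 (0.0466, with 0.888% of all genes). Over all 20 alternatives the adjusted p ran from 0.000717 to 0.312 and the log2 fold change from -0.66 to -0.46. Without SE libraries 3 to 5 it was -0.47 ± 0.132 (edgeR adjusted p = 0.249), and without SA library 1 as well -0.46 ± 0.136 (edgeR adjusted p = 0.312). The exon of this gene printed above belongs to the short collagenous stretch of a protein that is otherwise made of other domains.

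Col14a1, the close relative of Col12a1 and likewise a fiber-surface collagen of skin, did not share its pattern. It measured 186, 296, 264, 316 and 284 CPM in SA libraries 1 to 5 and 408, 185, 252, 183 and 270 CPM in SE libraries 1 to 5. Here SA library 1 was the lowest SA library and SE library 1 the highest of all, as for the fibrillar genes, and the groups overlapped (log2 fold change 0.05 ± 0.214, standard error, edgeR adjusted p = 0.936). Per kb, Col12a1 stood at 0.139 to 0.235 of Col14a1 in SA and at 0.162 to 0.354 in SE, with SE library 1 at 0.162 and the other 4 SE libraries at 0.275 or more.

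Col9a3, a type IX chain known from cartilage, measured 5.72, 4.09, 3.73, 2.84 and 4.08 CPM in SA libraries 1 to 5 and 3.59, 4.09, 6.05, 10.2 and 12.3 CPM in SE libraries 1 to 5. The high values were those of SE libraries 3 to 5, and SE libraries 1 and 2 lay inside the SA range. Its log2 fold change of -0.82 ± 0.332 (standard error, edgeR adjusted p = 0.407) stood at 0.10 without SE libraries 3 to 5. The hair genes were high in the same 3 libraries. Of 7 cartilage marker genes, none at 0, the 5 tested summed to 122 to 155 CPM there against 60.6 to 92.0 CPM in the other 7 libraries. Single markers were split, with 3 lower in SA and 2, Acan and Comp, higher (log2 fold changes 0.11 and 0.39). Without SE libraries 3 to 5 Acan stood at -0.41, Hapln1 at -0.16, Sox9 at 0.05 and Chad at 0.64. Col2a1 was low in SE libraries 3 and 5, at 0.134 and 0.137 CPM, and stood at 0.549 CPM in SE library 4. The part of the hair and cartilage genes in the Col9a3 result was not tested. An exon of another gene on the opposite strand shares 6.07% of the exon bases of Col9a3, and without a known strand setting those reads cannot be told apart.

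The remaining FACIT genes overlapped between groups. Col16a1, found beside fine fibrils of the upper dermis, held 338 to 482 CPM in SA and 383 to 473 CPM in SE. Col20a1 held 8.46 to 13.8 CPM in SA and 7.98 to 16.3 CPM in SE, and was highest in SA library 1 and SE library 4, against the fibrillar pattern. Col22a1, known from the junction of muscle and tendon, held 0.704 to 1.36 CPM in SA and 1.01 to 1.92 CPM in SE, with a log2 fold change of -0.55 ± 0.238 (standard error, edgeR adjusted p = 0.434). Col9a2 and Col19a1 stayed under 2 CPM in every library.

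Basement membrane collagens had small negative log2 fold changes in 8 of 9 genes, none past the threshold. Col18a1, the type XVIII chain whose end is released as endostatin, measured 181, 211, 213, 215 and 196 CPM in SA libraries 1 to 5 and 231, 243, 238, 217 and 232 CPM in SE libraries 1 to 5. It was the other collagen gene whose groups did not overlap, although SE library 4 and SA library 4 were nearly level. Its log2 fold change was -0.19 ± 0.068 (standard error), with an unadjusted p of 0.0155 and an adjusted p of 0.344 by edgeR, and it stood at -0.22 without SE libraries 3 to 5. Its relative Col15a1 measured 261, 394, 410, 476 and 391 CPM in SA and 475, 336, 382, 283 and 342 CPM in SE, which is the fibrillar library pattern, with SA library 1 lowest (log2 fold change 0.09 ± 0.162, standard error).

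Type IV collagen, the sheet of the basement membrane, is encoded by pairs of genes that lie head to head. Col4a1 and Col4a2, the pair used in nearly all basement membranes, overlap by 22 bases at their starts on chromosome 8. Col4a1 measured 550, 688, 743, 742 and 656 CPM in SA libraries 1 to 5 and 841, 661, 865, 641 and 763 CPM in SE libraries 1 to 5. Col4a2 measured 353, 415, 446, 435 and 409 CPM in SA and 484, 398, 506, 376 and 450 CPM in SE. The pair moved together, lowest in SA library 1 and highest in SE library 3, and the Col4a1 level per kb was 1.52 to 1.69 times that of Col4a2 in all 10 libraries. The log2 fold changes were -0.16 ± 0.114 and -0.10 ± 0.100 (standard errors), with edgeR adjusted p of 0.614 and 0.706, and -0.15 and -0.09 without SE libraries 3 to 5.

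The rarer type IV genes form the other pairs. Col4a3 and Col4a4 start 71 bases apart on chromosome 1, and Col4a5 and Col4a6 start 1308 bases apart on chromosome X. Col4a3 measured 9.84, 9.33, 8.99, 11.7 and 10.9 CPM in SA libraries 1 to 5 and 16.1, 11.8, 11.1, 12.6 and 10.7 CPM in SE libraries 1 to 5. SE library 1 was the highest and the groups overlapped (log2 fold change -0.30 ± 0.131, standard error, edgeR adjusted p = 0.435, and -0.45 without SE libraries 3 to 5). Its partner Col4a4 held 18.4 to 25.4 CPM in SA and 18.7 to 26.1 CPM in SE, and Col4a4 over Col4a3 per kb ran from 1.73 to 1.99 in SA and from 1.37 to 1.76 in SE. Of the Col4a3 exon bases 5.65% are shared with a gene on the opposite strand. Col4a5 held 69.9 to 84.9 CPM in SA and 72.0 to 96.0 CPM in SE, and Col4a6 28.8 to 40.8 and 33.2 to 45.5 CPM.

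Genes that join the epidermis to the dermis followed the keratinocyte side of the library pattern. Col7a1, the anchoring fibril gene mutated in dystrophic epidermolysis bullosa, measured 285, 238, 186, 201 and 212 CPM in SA libraries 1 to 5 and 186, 188, 223, 303 and 240.1 CPM in SE libraries 1 to 5. Col17a1, the hemidesmosome collagen of basal keratinocytes, measured 1564, 1375, 1157, 1206 and 1279 CPM in SA and 1064, 1253, 1470, 1793 and 1368 CPM in SE. Both were highest in SA library 1 and SE library 4 within their groups and lowest in SE library 1 of all 10 libraries, and the groups overlapped. The log2 fold changes were -0.02 ± 0.149 for Col7a1 and -0.08 ± 0.139 for Col17a1 (standard errors), with edgeR adjusted p of 0.962 and 0.845. Without SE libraries 3 to 5 they stood at 0.27 and 0.19, the opposite sign.

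Col17a1 kept a narrow quotient to both its partner and its cell type. Per kb its level was 9.22 to 11.2 times that of Col7a1 in the 10 libraries. Its CPM was 0.143 to 0.177 of the sum of the 8 basal keratinocyte markers. Set against dermal collagen, Col17a1 per kb was 0.0675 of Col1a1 in SE library 1 and 0.192 in SE library 4, 0.0719 to 0.0887 in SA libraries 2 to 5 and 0.155 in SA library 1.

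The other transmembrane collagens were scarcer. Col23a1, a collagen of the epithelial cell surface, measured 47.7, 49.6, 54.4, 48.7 and 50.4 CPM in SA libraries 1 to 5 and 41.8, 48.4, 57.2, 42.0 and 45.4 CPM in SE libraries 1 to 5. Col13a1, which acts at the neuromuscular junction, measured 8.25, 9.11, 8.86, 6.77 and 7.07 CPM in SA and 5.92, 10.02, 5.88, 6.41 and 4.75 CPM in SE. The SA values of both lay within the SE range. The log2 fold changes were 0.10 ± 0.089 for Col23a1 and 0.28 ± 0.189 for Col13a1 (standard errors), with edgeR adjusted p of 0.699 and 0.591, and Col13a1 stood at -0.00432 without SA library 1 and SE libraries 3 to 5. Col25a1 ranged from 0.282 to 1.32 CPM over all libraries.

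Network collagens divided by type. The type VI genes encode chains that assemble into beaded filaments between cells and fibers, and SE library 1 was the highest library for Col6a1, Col6a2, Col6a3 and Col6a6, as for the fibrillar genes of the dermis. Col6a1 measured 558, 769, 901, 938 and 824 CPM in SA libraries 1 to 5 and 1047, 668, 794, 599.6 and 677 CPM in SE libraries 1 to 5. Col6a3 measured 595, 899.8, 948, 1130.0 and 944 CPM in SA and 1147, 699, 947, 717 and 822 CPM in SE. SA library 1 was lowest of all 10 for both, and the log2 fold changes were 0.08 ± 0.170 and 0.06 ± 0.176 (standard errors), with edgeR adjusted p of 0.880 and 0.907. Col6a2 ranged from 603 to 1140.0 CPM and Col6a6 from 40.1 to 109 CPM, both lowest in SE library 4 and highest in SE library 1. Col6a5 stayed between 5.48 and 10.5 CPM and did not share this pattern, being highest in SA library 5 and, within SE, in library 4.

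Type VIII collagen, a short-chain collagen of hexagonal sheets known from blood vessels and the cornea, had lower means in SA, not past the threshold. Col8a1 measured 12.1, 9.33, 12.2, 19.9 and 17.0 CPM in SA libraries 1 to 5 and 21.6, 14.5, 23.0, 21.5 and 24.3 CPM in SE libraries 1 to 5. Col8a2 measured 49.4, 30.4, 27.7, 37.3 and 38.1 CPM in SA and 31.8, 36.3, 52.4, 68.1 and 45.2 CPM in SE. For Col8a1 4 of 5 SE libraries lay above every SA library and SE library 2 did not, while Col8a2 was high in SE libraries 3 to 5 and in SA library 1. The log2 fold change of Col8a1 was -0.57 ± 0.201 (standard error, edgeR adjusted p = 0.344), and -0.35 without SE libraries 3 to 5. That of Col8a2 was -0.35 ± 0.206 (standard error, edgeR adjusted p = 0.543), and 0.11 without those libraries. The 8 endothelial markers, none at 0, summed to 410 to 451 CPM in SA and 408 to 460.2 CPM in SE.

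Outside the classes, Col28a1 came closest to the threshold after Col12a1. Type XXVIII collagen is known from peripheral nerve. Col28a1 measured 15.4, 21.8, 15.1, 16.9 and 17.2 CPM in SA libraries 1 to 5 and 26.1, 21.0, 22.8, 23.7 and 24.1 CPM in SE libraries 1 to 5, and the groups overlapped only through SA library 2 and SE library 2. Its log2 fold change was -0.45 ± 0.108 (standard error), with an edgeR adjusted p of 0.160, a DESeq2 adjusted p of 0.0141 and an adjusted p of 0.0201 in the authors' deposited table. It stood at -0.44 without SE libraries 3 to 5 and at -0.42 without SA library 1 as well (edgeR adjusted p = 0.395 and 0.417). The 7 Schwann cell markers, none at 0, summed to 1184 to 1787 CPM in SA and 773 to 1620 CPM in SE, with all 7 higher in SA and none at an unadjusted p under 0.05.

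Col26a1 measured 3.00, 4.31, 5.61, 4.38 and 3.15 CPM in SA libraries 1 to 5 and 4.79, 3.78, 2.58, 2.06 and 2.65 CPM in SE libraries 1 to 5. The low values were those of SE libraries 3 to 5, and its log2 fold change of 0.36 ± 0.249 (standard error, edgeR adjusted p = 0.598) stood at -0.06 without them.

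Side by side, the class medians of the log2 fold change were 0.01 for the 11 fibrillar genes, -0.09 for the 9 basement membrane genes, -0.33 for the 8 tested FACIT genes, 0.08 for the 7 tested network genes and 0.01 for the 4 transmembrane genes, against -0.01 for all genes. In the basement membrane class 8 of 9 genes were lower in SA and in the FACIT class 6 of 8, where 8735 of 16909 tested genes were. The FACIT median moved to -0.07 without SE libraries 3 to 5 and to -0.05 without SA library 1 as well, while the basement membrane median was -0.09 and -0.06 under these settings. Single libraries moved both medians: without SA library 3 or SE library 4 the basement membrane median was -0.02 and -0.01, with 5 of 9 genes lower in SA, and without SA library 5 the FACIT median was -0.19. The FACIT median also moved with the filter on low counts. At a minimum count of 50 it was -0.08 over 5 genes, 3 of them lower in SA, and without a filter it was -0.19 over 9 genes. Without SE libraries 3 to 5, and without SA library 1 as well, the network median changed sign, to -0.08 and -0.02. It was then over 8 genes, because Col6a4 passed the filter. The transmembrane median moved to 0.18, with 4 of 4 genes higher in SA, and to 0.14, with 3 of 4 higher. Summed over their members, fibrillar genes stood at 55162 ± 10842 CPM in SA and 50086 ± 11199 CPM in SE, basement membrane genes at 2051 ± 166 and 2177 ± 192, network genes at 2700.0 ± 507 and 2565 ± 577, transmembrane genes at 1375 ± 159 and 1444 ± 272 and FACIT genes at 811 ± 109 and 847 ± 127 (SD over 5 libraries). For each class the difference of these sums was smaller than the SD of the SE group.

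Quotients between chains that assemble together were also compared. Per kb, Col1a1 stood at 0.768 to 0.853 of Col1a2 in SA and at 0.731 to 0.772 in SE, so only SA library 4 fell inside the SE range. The highest quotient was that of SA library 1, and SA library 2 (0.778) lay close to SE library 2 (0.772). A difference of these quotients between the groups was not tested. Col6a1 stood at 0.846 to 0.957 of Col6a2 over all libraries. Col5a2 over Col5a1 was 1.29, 1.30 and 1.29 in SE libraries 3, 4 and 5 and 1.01 to 1.15 in the other 7, which sets the 3 libraries apart within type V collagen while each gene alone did not. Of the Col5a1 exon bases 2.50% are shared with genes on the opposite strand.

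Of the genes that act on collagen, 1 of 94 tested passed the edgeR threshold, where 0.0769% of all tested genes did, and DESeq2 and limma voom passed the same gene, Mmp9, and no other of these lists. The counts at an unadjusted p that follow stand against 11.1% of all tested genes, and 6.53% lower in SA. Of 20 tested folding and modifying enzymes 1, Plod2, a lysyl hydroxylase, had an unadjusted p under 0.05 (log2 fold change -0.50 ± 0.213, standard error, adjusted p = 0.427, and -0.91 without SE libraries 3 to 5). Serpinh1, the collagen chaperone of the endoplasmic reticulum, stood at 0.36 ± 0.184 (standard error, edgeR adjusted p = 0.493), and at 0.00115 without SE libraries 3 to 5. Of 12 trimming and cross-linking genes 0 had an unadjusted p under 0.05 by edgeR, DESeq2 or limma voom. Among them Pcolce, which speeds removal of the end piece of procollagen, stood at 0.32 ± 0.203, and Bmp1, the enzyme it aids, at -0.13 ± 0.123 (standard errors). They stood at -0.02 and -0.05 without SE libraries 3 to 5.

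On the fibril surface, 2 of 15 proteoglycans and glycoproteins had an unadjusted p under 0.05, 1 in each direction. Thbs2, a matricellular protein whose loss disturbs collagen fibrils in mice, measured 152, 233, 193, 293 and 253 CPM in SA libraries 1 to 5 and 278, 255, 429, 312 and 404 CPM in SE libraries 1 to 5, with SE libraries 3 to 5 above every SA library. Its log2 fold change was -0.58 ± 0.188, and that of Kera, the small proteoglycan keratocan, was 0.55 ± 0.20 (standard errors, edgeR adjusted p of 0.311 and 0.354). Thbs2 stood at -0.24 and Kera at 0.18 without SE libraries 3 to 5, neither at an unadjusted p under 0.05.

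Among collagen-degrading genes 1 of 8 tested passed, higher in SA, and 2 had an unadjusted p under 0.05 by edgeR, Mmp9 and Mmp8, both higher in SA. Mmp8 was scarce, with means of 0.776 CPM in SA and 0.435 CPM in SE, and the groups overlapped. Its log2 fold change was 0.83 ± 0.313 (standard error, edgeR adjusted p = 0.369), and 1.29 without SE libraries 3 to 5. Mmp9, a gelatinase, measured 15.4, 17.9, 17.6, 14.2 and 15.7 CPM in SA libraries 1 to 5 and 10.7, 9.93, 10.6, 10.3 and 11.2 CPM in SE libraries 1 to 5. All SA libraries lay above all SE libraries, which 1.13% of all tested genes showed in that direction. The log2 fold change of Mmp9 was 0.62 ± 0.092 (standard error, edgeR adjusted p = 0.0362). Without SE libraries 3 to 5 it was 0.65, with an edgeR adjusted p of 0.105, and its call was lost without any 1 of SA libraries 1, 2, 3 and 5 or SE libraries 3, 4 and 5 (adjusted p 0.0703 to 0.145). The medians of this list and of all genes were -0.05 and -0.01, and the fibroblast-made proteases Mmp2 and Mmp14 stood at -0.15 and -0.16, and at 0.03 and 0.24 without SE libraries 3 to 5. Mmp1a was listed at 0 reads in every library.

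Among collagen receptors 0 of 8 tested genes had an unadjusted p under 0.05 by edgeR, DESeq2 or limma voom. Ddr1, a receptor kinase of epithelial cells that binds collagen, stood at -0.33 ± 0.157 and Itga11, the alpha chain of a fibroblast collagen integrin, at -0.40 ± 0.231 (standard errors, edgeR adjusted p of 0.471 and 0.539), and without SE libraries 3 to 5 they stood at 0.09 and -0.10. Of 18 other basement membrane genes 1 had an unadjusted p under 0.05, Lamc3, a laminin chain (log2 fold change -0.48 ± 0.156, standard error, edgeR adjusted p = 0.313, and -0.06 without SE libraries 3 to 5), and Frem1, of the basement membrane beneath the epidermis, stood at 0.30 ± 0.143 (standard error), and at 0.21 without them. Of 13 genes of TGF-beta signalling, the main inducer of collagen genes in fibroblasts, 5 had an unadjusted p under 0.05, all lower in SA, where 6.53% of all genes were: Smad7, Ltbp4, Smad3, Tgfbr1 and Ctgf. Smad3 alone of the 13 was at that p without SE libraries 3 to 5 (log2 fold change -0.29), where Smad7 stood at -0.06, Ltbp4 at -0.02, Tgfbr1 at -0.10 and Ctgf at 0.00534. Smad7, the pathway's inhibitor, stood at -0.30 ± 0.111 and Ltbp4, which binds the latent ligand, at -0.27 ± 0.101 (standard errors, edgeR adjusted p of 0.368 and 0.369). Smad7 and Ltbp4 were both higher in SE libraries 3 to 5 (15.0 to 16.8 and 338 to 348 CPM) than in the other 7 (10.7 to 12.5 and 242 to 283 CPM).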

How the data were processed

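RNA-seq of 10 skin libraries was analysed from the deposited counts of reads per Ensembl gene. Per the submitters' processing notes the authors' tools were STAR 2.4.2a, HTSeq 0.6.1p1 and SAMtools, with GRCm38 as the genome. Annotation release, counting mode and strand option: not given in the sources used here. Antisense reads may therefore be counted to a gene, and reads shared by similar sequences may be lost. The 5 rows that name no gene were left out. They held non-unique reads (23.1% to 26.7% of listed reads), reads with no feature (3.06% to 6.59%) and ambiguous reads (3.11% to 3.40%). A second deposited table holds the authors' DESeq2 comparison, per the submitters' processing notes: group means as normalized counts (a signal, counts over size factors), log2 fold changes with their errors, a test score, p-values and adjusted p-values. It served for gene symbols and for sentences that name it.

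Testing used edgeR 4.0.16 (R 4.3.3), with filterByExpr at a minimum count of 10 (16909 genes), TMM scaling and the two-sided quasi-likelihood test of SA against SE without covariates, adjusted by Benjamini-Hochberg over all tested genes at 0.05. A prior count of 0.125 went into the log2 fold changes (SA minus SE), and the standard error is the absolute log2 fold change divided by the root of F. CPM are TMM-scaled, with SDs over 5 libraries, and per kb values use the APPRIS principal transcript (then the longest coding sequence) in the GENCODE annotation of GRCm38, which also gave coordinates and exons. The computation was tested on simulated data. DESeq2 1.42.0, limma 3.58.1 voom, other scalings, filters and covariates, and leaving out libraries were the 20 alternatives. No pair of libraries within a group agreed within sampling noise (chi-square per degree of freedom 5.40 to 92.8). Replicate numbers come from the titles.

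The members, classes and gene lists were chosen with earlier results of these data known. The rule for named genes gave library values for 15 collagen genes chosen by role and for the 2 members of each class with the smallest p, and from each pathway list the members past the threshold or otherwise the 2 with the smallest p. Mmp2, Mmp8, Mmp14, Smad3, Tgfbr1 and Ctgf fell outside it and were named after their values were seen. Marker lists were fibroblasts, endothelium, basal keratinocytes, hair shaft with inner root sheath, pericytes and smooth muscle, adipocytes, skeletal muscle, Schwann cells, cartilage and proliferation.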

Additional observations from a re-analysis of the deposited data

Results flagged for a closer look

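Within each group of 5 libraries, the highest and the lowest value were compared with the rest by Dixon's test at its 95% level, for every tested collagen gene and for the class sums. Of 98 such groups 10, or 10.2%, held a library outside the limit, where chance gives about 1 in 20. The sums and the genes in them overlap, so these are not independent.

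Of the 10, 8 were low values in SA library 1. Col1a1 stood at 10956 CPM there against 16370 to 17425 CPM in the other 4 SA libraries, Col1a2 at 11585 against 18259 to 20286, and Col3a1 at 12095 against 19990 to 22519. Col5a1 stood at 692 CPM against 1019 to 1117, and Col5a2 at 548 against 899 to 1016. The sums were 42063 CPM for all collagen genes, 36110 CPM for the fibrillar class, and 34635 CPM for Col1a1, Col1a2 and Col3a1, against at least 63819, 56821 and 54619 CPM in the other 4. The fibroblast markers were lowest of the SA libraries in SA library 1 as well, at 2650 CPM, and the quotient of the fibrillar sum over them was 13.6, inside the 13.2 to 15.4 of the other 4.

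In SE, Col8a1 was low in library 2, at 14.5 CPM against 21.5 to 24.3 CPM in the other 4. Col12a1 was high in SE library 5, at 166 CPM against 131 to 141 CPM. Without SE library 5 the log2 fold change of Col12a1 was -0.49, with an edgeR adjusted p of 0.214.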

How the results depend on the processing

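The count of genes past the edgeR threshold over the whole table, 13 in the comparison reported, was 298 with DESeq2, 41 without SE libraries 3 to 5, 36 without SA library 1 as well, and 7 to 225 when each library was left out in turn, with 225 without SE library 1 and 152 without SE library 2. The count of collagen genes was 0 and became 2 with DESeq2 and 0 to 1 when each library was left out, 1 (Col12a1) without SA library 4, SE library 1 or SE library 2. It was 0 with limma voom. The collagen median stayed negative in all 20 alternatives, -0.0787 to -0.00657 when each library was left out. The median over all tested genes was negative too, except without a filter on low counts (0.0042). Without SA library 1 and SE libraries 3 to 5 the collagen median was -0.0039 and that of all genes -0.0118. These collagen medians are small beside the spread of 0.146 (log2) among the collagen medians of libraries within a group. Scaling without the collagen genes left the 13 calls at 13. The labels do not say whether the replicate numbers pair the libraries. Same-numbered SA and SE libraries correlated between -0.288 and 0.0715 in their deviations from the group means. With 5 such pairs these values cannot decide whether the numbers pair the libraries. With the replicate block 10 genes and 0 collagen genes passed and the collagen median was -0.0268.

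Among the named genes, 39 single-gene values changed sign, none of them past the threshold in either direction, and the causes were not tested. Without SE libraries 3 to 5 Col1a2 was at -0.0155, Col3a1 at -0.0745, Col5a1 at -0.144, Col6a1 at -0.0996, Col6a3 at -0.0263, Col14a1 at -0.137, Col15a1 at -0.0646, Col26a1 at -0.0640 and Pcolce at -0.0206, while Col7a1 was at 0.271, Col17a1 at 0.191, Col11a2 at 0.297, Col9a3 at 0.0986, Col8a2 at 0.110 and Ddr1 at 0.0882. Without SA library 1 as well, Col5a1 was at -0.0515, Col6a1 at -0.00552, Col14a1 at -0.0397, Col13a1 at -0.00432, Col7a1 at 0.159, Col17a1 at 0.110, Col11a2 at 0.194 and Bmp1 at 0.00182. With sex genes as a covariate Col5a2 was at 0.00124. Leaving out single libraries gave ranges that cross 0 for Col14a1 (-0.0471 to 0.275), Col17a1 (-0.160 to 0.0349), Col5a1 (-0.00132 to 0.277), Col5a2 (-0.0936 to 0.1253), Col6a3 (-0.0320 to 0.183) and Col7a1 (-0.123 to 0.106). Plod2 passed only without SA library 1 and SE libraries 3 to 5 (log2 fold change -0.84, edgeR adjusted p = 0.0431), and Lamc3 only without SE library 2 (-0.60, adjusted p = 0.0484). Mmp9 lost its call also with the replicate block (adjusted p = 0.278) and the sex covariate (0.101). Depth limits Col6a4, Col9a1 and Col10a1, which were counted at 27 to 73 reads in all.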
